A study of Mus musculus with 20 samples.

Results

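The 9 genes described here carry the norrin and Frizzled4 signal of the retina from its ligand to its target genes. They were taken from the deposited expression tables by gene symbol, as *Ndp*, *Fzd4*, *Lrp5*, *Lrp6*, *Tspan12*, *Ctnnb1*, *Lef1*, *Apcdd1* and *Axin2*. All 9 were listed among the 19368 genes of the tables for P17 retinas and among the 19102 genes of the tables for P30 retinas, and all 9 passed the filter on low values, a mean of more than 0.1 FPKM. FPKM counts fragments relative to transcript length and to the number of fragments mapped in the library, so levels of different genes can be compared per length.

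Messenger RNA of whole retinas was sequenced in 4 groups of C57BL/6J-background mice with 5 libraries each. WT OIR mice and Atf6-/- OIR mice, called Atf6 knockout in the labels, went through oxygen-induced retinopathy (OIR): pups were kept in 75% oxygen from P7 to P12, which prunes the growing retinal vessels, and their retinas were taken at P17 after return to room air, when new vessels grow. PBS mice and Ceapin-A7 mice were WT mice without oxygen exposure that had 1 µL injected into the vitreous of both eyes at P30, saline with solvent in the first group and 10 µM Ceapin-A7, a small molecule that blocks activation of ATF6, in the second, and retinas were taken 24 h later. Ceapin-A7 was also given in saline with solvent. Per the study's methods the share of solvent was higher in the control injections, so compound and solvent share cannot be told apart. ATF6 is a transcription factor held in the endoplasmic reticulum until unfolded proteins gather there. The Atf6-/- mice carry a premature stop codon in every cell, and mice of both sexes were used. The study's methods state that mice came from several litters, but the sources used here do not tie libraries to litters, so p-values measure the spread between these libraries. The methods count 5 retinas per group and do not state that each came from a separate mouse.

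Norrin, the product of *Ndp*, is a secreted protein that is not a Wnt yet binds a Wnt receptor, Frizzled4. In the retina norrin is made mainly by Muller glia, and Frizzled4 acts on endothelial cells together with the co-receptor LRP5 or LRP6 and the tetraspanin TSPAN12. Binding keeps beta-catenin, the product of *Ctnnb1*, from being degraded, and beta-catenin then joins LEF and TCF factors on target genes such as *Axin2* and *Apcdd1*. Loss of *NDP*, *FZD4*, *LRP5* or *TSPAN12* leaves the retina with too few vessels, and variants in these genes underlie Norrie disease and familial exudative vitreoretinopathy.

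Because *Ndp* and *Fzd4* encode the ligand and its receptor and *Axin2* is the usual readout of the pathway, the 250 bases before their transcription starts are given here from RefSeq promoter entries (GRCm38.p6), 5′ to 3′ on the strand of the gene. Entries for 6 of the 9 genes were read, and promoters of *Lrp5*, *Lrp6* and *Apcdd1* were not examined. The window of *Ndp* lies on the minus strand at chrX:16911775-16912024, that of *Fzd4* on the plus strand at chr7:89404116-89404365 and that of *Axin2* on the plus strand at chr11:108920099-108920348. Capitals mark a TCF/LEF core, searched on both strands as CTTTG followed by AA, AT, TA or TT.

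Ndp: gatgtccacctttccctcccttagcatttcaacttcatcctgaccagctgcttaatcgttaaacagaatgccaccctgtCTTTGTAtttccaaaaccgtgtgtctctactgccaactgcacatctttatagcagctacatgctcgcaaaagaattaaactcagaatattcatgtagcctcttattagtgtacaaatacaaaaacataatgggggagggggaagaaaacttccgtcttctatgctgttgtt

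Fzd4: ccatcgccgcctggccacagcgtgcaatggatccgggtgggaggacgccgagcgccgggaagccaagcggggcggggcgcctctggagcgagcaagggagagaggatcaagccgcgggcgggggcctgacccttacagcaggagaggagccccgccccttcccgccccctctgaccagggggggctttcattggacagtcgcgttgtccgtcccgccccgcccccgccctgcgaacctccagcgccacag

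Axin2: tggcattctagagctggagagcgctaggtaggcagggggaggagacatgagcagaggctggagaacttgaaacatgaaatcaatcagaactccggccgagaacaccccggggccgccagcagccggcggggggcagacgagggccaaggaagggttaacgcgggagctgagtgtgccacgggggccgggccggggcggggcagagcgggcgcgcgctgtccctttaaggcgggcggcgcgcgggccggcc

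The *Ndp* window held 1 core, CTTTGTA, which begins 171 bases before the start, and the windows of *Fzd4* and *Axin2* held none. Of the 10 entries for the 6 genes, read over 300 bases, 2 held a core, the second being 1 of the 4 entries of *Lef1*. Of all 32851 entries, 16.9% held one. The ER stress response element (CCAAT, 9 bases, CCACG), which ATF6 binds, was in 0 of the 10 entries and in 0.119% of all entries. These matches are letters in a window and do not show binding.

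Several libraries stood apart from their groups. The transcript of *Atf6* was at 14.61 to 16.05 FPKM in WT OIR and at 13.57 to 16.83 FPKM in Atf6-/- OIR libraries, so its level does not check the genotype. *Gm29733* was at no more than 0.21 FPKM in WT OIR libraries and at 3.12 FPKM or more in Atf6-/- OIR libraries. This gene was chosen after its values were seen, so it is not an independent check of the genotype either. The level of a gene relative to the other libraries of the same experiment depended on its GC content, and this GC trend, a Spearman correlation across 12753 genes, was 0.368 to 0.447 in WT OIR libraries 1, 2, 3 and 5 and -0.35 in WT OIR library 4. It was -0.626 to -0.181 in Atf6-/- OIR libraries 1 to 4 and 0.466 in Atf6-/- OIR library 5. PBS libraries 4 and 5 had the lowest sums of the 7 rod markers, 14369 and 13446 FPKM against 18242 to 20332 FPKM in the other PBS libraries. The 12 endothelial markers, taken as markers of the cells that norrin acts on, summed to 125.3 to 174.1 FPKM in WT OIR, 109.6 to 144.6 FPKM in Atf6-/- OIR, 68.6 to 89.3 FPKM in PBS and 64.1 to 74.2 FPKM in Ceapin-A7 libraries. *Kdr* weighs most in these sums, at 38.1 ± 7.36 FPKM (SD) in PBS and 39.4 ± 7.81 FPKM in WT OIR. In whole retina, fewer cells of a type and less RNA per cell cannot be told apart.

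The 9 genes differed widely in level. *Ctnnb1*, whose product also serves cell adhesion, was the highest in all 20 libraries, at 105.52 to 135.82 FPKM. *Apcdd1*, which encodes a membrane-bound inhibitor of Wnt signalling, followed at a mean of 13.3 FPKM over the 20 libraries. *Axin2*, a scaffold of the complex that degrades beta-catenin, and *Lrp6* had means of 9.01 and 8.96 FPKM, and *Axin2* was the higher of the pair in 8 of 20 libraries. The means of *Ndp*, *Tspan12* and *Fzd4* were 6.25, 5.69 and 5.46 FPKM. These neighbours could not be ordered, since *Ndp* exceeded *Tspan12* in 9 of 20 libraries and *Tspan12* exceeded *Fzd4* in 10 of 20. *Lrp5* was at a mean of 3.66 FPKM and was below *Fzd4* in 17 of 20 libraries. *Lef1*, which encodes a DNA-binding partner of beta-catenin, was below *Lrp5* in all 20 libraries, at 0.5 to 1.83 FPKM.

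**Figure D1:**
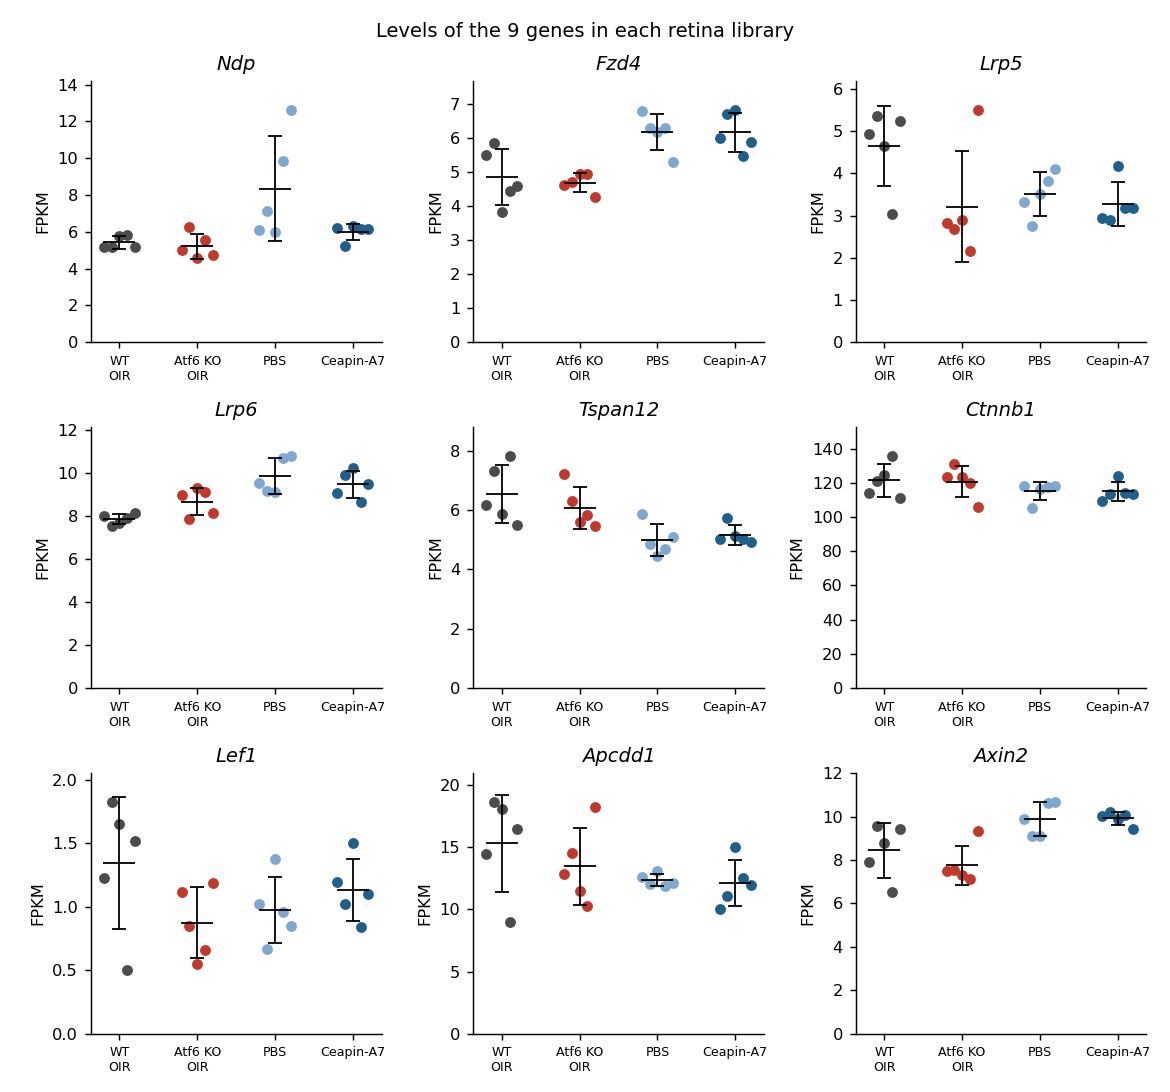
Each panel plots the FPKM of 1 gene (linear axis from 0) in the 5 libraries of WT OIR, Atf6-/- OIR, PBS and Ceapin-A7 retinas, with bars at the mean and the SD. *Ndp* reaches 9.84 and 12.62 FPKM in PBS libraries 4 and 5 and stays at 7.12 FPKM or less elsewhere, and *Lrp5* is at 3.04 FPKM in WT OIR library 4 and at 5.5 FPKM in Atf6-/- OIR library 5.

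The first comparison asked whether loss of *Atf6* changed these genes in OIR retinas at P17. None of the 9 passed the adjusted threshold of 0.05, which 0.0318% of the 15704 genes tested did (limma with Benjamini-Hochberg adjustment). Before adjustment, *Lrp5* and *Lrp6* reached a p of 0.05 or less, 2 of 9 genes where 12.7% of all genes did. Of those genes 54.4% were higher in Atf6-/- OIR, or 30.5% with the FPKM left unscaled. None of the 9 had genotypes that did not overlap, as 1.8% of all genes had. The median log2 fold change of the 9 was -0.081, beside 0.0028 over all genes tested.

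For the ligand no difference between the genotypes was detected. *Ndp* was at 5.17, 5.17, 5.78, 5.82 and 5.18 FPKM in WT OIR libraries 1 to 5. In Atf6-/- OIR libraries 1 to 5 it was at 5.03, 6.24, 4.55, 5.55 and 4.73 FPKM. The groups overlapped, and the log2 fold change was -0.044 ± 0.085 (SE, n = 5 and 5) with a 95% interval from -0.23 to 0.14 (exact permutation p = 0.611).

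*Fzd4* overlapped as well, at 3.83 to 5.85 FPKM in WT OIR (median 4.58) and at 4.26 to 4.92 FPKM in Atf6-/- OIR (median 4.71). Its log2 fold change was -0.014 ± 0.11 with a 95% interval from -0.26 to 0.23. *Tspan12*, whose product strengthens the response of Frizzled4 to norrin, had a log2 fold change of -0.081 ± 0.11 with an interval from -0.31 to 0.15. That of *Ctnnb1* was 0.010 ± 0.058 with an interval from -0.12 to 0.14, the narrowest of the 9.

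The genes of the co-receptors LRP5 and LRP6, which serve the same complex, had values of opposite sign. *Lrp5* was at 4.93, 5.36, 4.64, 3.04 and 5.25 FPKM in WT OIR libraries 1 to 5. In Atf6-/- OIR libraries 1 to 5 it was at 2.82, 2.68, 2.9, 2.15 and 5.5 FPKM. Thus 4 Atf6-/- OIR libraries lay below every WT OIR library and library 5 lay above them all. For *Lrp5* the log2 fold change was -0.55 ± 0.24 (limma, unadjusted p = 0.0419, adjusted p = 0.381), and the exact permutation p was 0.127.

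*Lrp6* was at 8, 7.54, 7.66, 7.89 and 8.12 FPKM in WT OIR libraries 1 to 5. In Atf6-/- OIR libraries 1 to 5 it was at 8.95, 7.84, 9.29, 9.1 and 8.14 FPKM, with 4 of 5 above every WT OIR library. The log2 fold change was 0.16 ± 0.069 (limma, unadjusted p = 0.041, adjusted p = 0.38, exact permutation p = 0.0317). With the GC trend of each library removed, the value for *Lrp6* was 0.085 ± 0.067 (limma, adjusted p = 0.633) and that for *Lrp5* was -0.45 ± 0.20 (adjusted p = 0.454).

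The genes that respond to beta-catenin spread widely within a genotype. *Lef1* was at 1.23, 1.83, 1.65, 0.5 and 1.52 FPKM in WT OIR and at 1.12, 0.85, 0.55, 0.66 and 1.19 FPKM in Atf6-/- OIR libraries 1 to 5, a log2 fold change of -0.50 ± 0.32 (limma, adjusted p = 0.475). *Apcdd1*, itself a target of the pathway, was at 14.42, 18.66, 18.04, 8.97 and 16.43 FPKM in WT OIR and at 12.84, 14.51, 11.46, 10.3 and 18.25 FPKM in Atf6-/- OIR, a log2 fold change of -0.15 ± 0.21 (limma, adjusted p = 0.741). *Axin2* was at 7.93, 9.57, 8.78, 6.53 and 9.43 FPKM in WT OIR and at 7.5, 7.56, 7.32, 7.12 and 9.34 FPKM in Atf6-/- OIR, a log2 fold change of -0.10 ± 0.13 (limma, adjusted p = 0.719). In each of these 3 genes WT OIR library 4 was the lowest of its group and Atf6-/- OIR library 5 the highest of its group.

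*Lrp5*, *Lef1*, *Apcdd1* and *Axin2* varied together from library to library. Over the 20 libraries, with each group centred on its mean, their 6 pairwise Pearson correlations of log2 values were between 0.691 and 0.831, the highest among all pairs of the 9 genes. The next pair was *Tspan12* and *Ctnnb1* at 0.474, and the lowest was *Ctnnb1* and *Axin2* at -0.57. These are descriptions over libraries that share depth, base composition and cell content.

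These 4 genes also followed the GC trend of the P17 libraries. *Lrp5* was at 4.64 to 5.5 FPKM in the 5 libraries with a trend above 0, which are WT OIR libraries 1, 2, 3 and 5 and Atf6-/- OIR library 5, and at 2.15 to 3.04 FPKM in the 5 with a trend below 0. *Lef1* was at 1.19 to 1.83 FPKM against 0.5 to 1.12 FPKM and *Axin2* at 7.93 to 9.57 FPKM against 6.53 to 7.56 FPKM, again without overlap. *Apcdd1* overlapped slightly, at 14.42 to 18.66 FPKM against 8.97 to 14.51 FPKM. The transcripts of *Axin2*, *Lrp5* and *Apcdd1* have 57.7%, 57.2% and 54.5% GC, the highest of the 9, but *Lef1* has 50.4%, below the median of 51.0% over all genes. *Ndp* and *Fzd4*, with 46.6% and 47.0% GC, overlapped between the same libraries. At P30 all 4 genes overlapped between the 6 libraries with a trend above 0 and the 4 with a trend below 0. *Lrp5* was at 3.18 to 4.17 FPKM against 2.75 to 3.19 FPKM there, and *Lef1* at 0.84 to 1.5 FPKM against 0.67 to 1.2 FPKM.

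**Figure D2:**
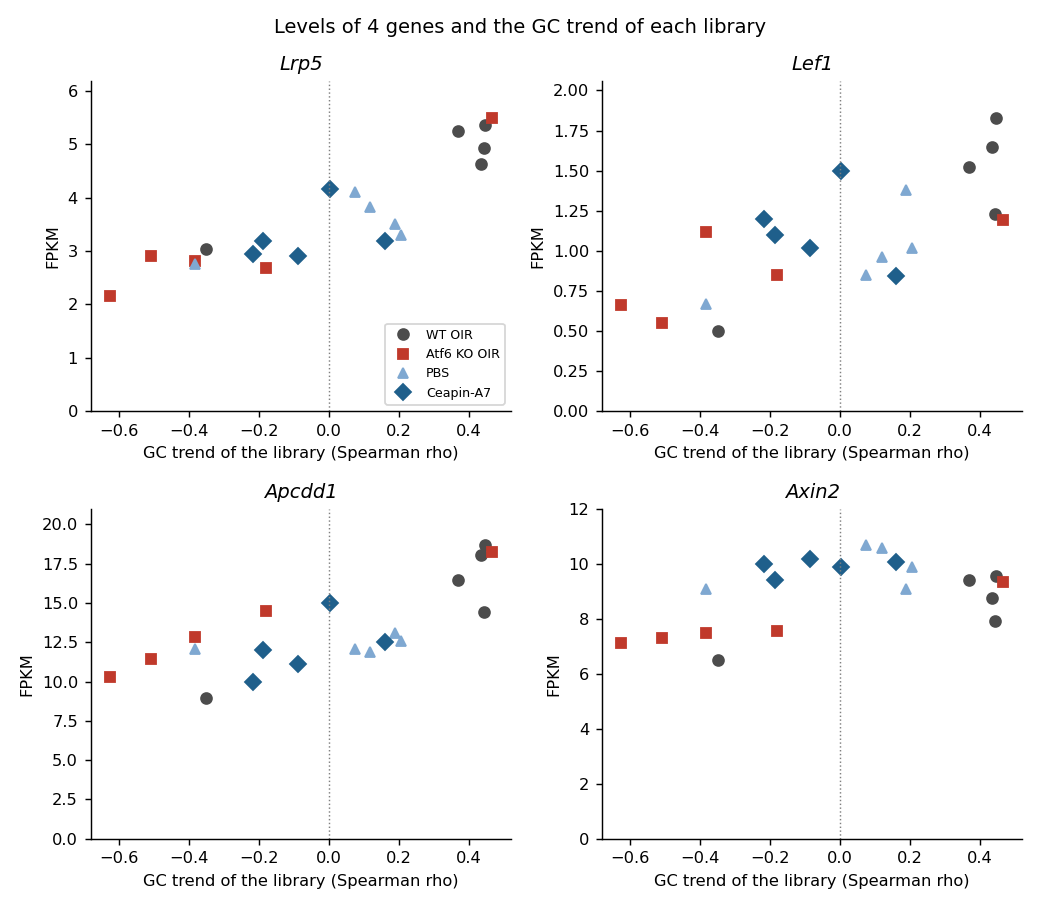
Each panel plots the FPKM of *Lrp5*, *Lef1*, *Apcdd1* or *Axin2* (linear axis from 0) in 20 libraries against the GC trend of the library, the Spearman correlation across genes of its relative level with transcript GC content. At P17 the libraries with a trend above 0 lie higher for *Lrp5*, *Lef1* and *Axin2* than all those below 0, and Atf6-/- OIR library 5 lies with 4 of the WT OIR libraries.

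The values of these 4 genes moved when WT OIR library 4 and Atf6-/- OIR library 5 were left out. These 2 libraries were picked after the data were seen, because their GC trend went against that of their group, and the 4 genes went against their group in the same libraries, so the values without them are not independent evidence. Without them the log2 fold change of *Lrp5* was -0.93 ± 0.11 (limma, adjusted p = 0.000727), and that of *Lef1* was -0.93 ± 0.20 (adjusted p = 0.0102). *Apcdd1* was at -0.47 ± 0.11 (adjusted p = 0.0113) and *Axin2* at -0.28 ± 0.071 (adjusted p = 0.0184). In that fit 24.9% of all genes passed the adjusted threshold. With the GC trend removed as well, 12.7% of all genes passed, with *Lrp5* at -0.75 ± 0.10 (adjusted p = 0.00327), *Lef1* at -0.94 ± 0.20 (adjusted p = 0.0171), *Apcdd1* at -0.37 ± 0.10 (adjusted p = 0.0383) and *Axin2* at -0.091 ± 0.070 (adjusted p = 0.431). In the 8 remaining libraries the sign of the GC trend and the genotype coincide and cannot be told apart.

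Vessel markers had values in the same direction as *Lrp5*, *Lef1*, *Apcdd1* and *Axin2*. Over all 10 libraries 11 of 12 endothelial markers and 9 of 9 mural cell markers had a log2 fold change below 0, with medians of -0.27 and -0.54, none passed the adjusted threshold and no marker of either list was at 0. Of 9 pigment epithelium markers 5 had higher values at an unadjusted p of 0.05 or less (median 1.01), and of 12 lens markers tested 10 had lower values at the same threshold (median -2.51), and the part of these tissues in the values of the 9 genes was not tested. The endothelial score of a library was the mean log2 value of the 12 endothelial markers. With this score as a covariate, 0 of the 9 genes and 4.06% of all genes had an unadjusted p of 0.05 or less, with *Lrp5* at -0.23 ± 0.24 and *Lrp6* at 0.10 ± 0.076 on the log2 scale.

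The second comparison asked whether blocking ATF6 with Ceapin-A7 changed these genes in the P30 retina. None of the 9 passed the adjusted threshold, and 0% of the 15408 genes tested did (limma), while 1595 genes had an unadjusted p of 0.05 or less. That is 10.4% of all genes and 1 of the 9, *Ndp*. Of those genes 48.7% were higher after Ceapin-A7, or 26.8% with every library scaled to the same sum (TPM). None of the 9 had groups that did not overlap, as 1.47% of all genes had. The median log2 fold change of the 9 was -0.0026, beside 0.00089 over all genes.

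*Ndp* was at 6.12, 7.12, 5.99, 9.84 and 12.62 FPKM in PBS libraries 1 to 5. In Ceapin-A7 libraries 1 to 5 it was at 6.19, 5.23, 6.34, 6.13 and 6.13 FPKM. Ceapin-A7 libraries other than library 2 lay within the range of PBS libraries 1 to 3, and PBS libraries 4 and 5 lay above all others. The log2 fold change was -0.41 ± 0.17 (limma, unadjusted p = 0.0384, adjusted p = 0.472, exact permutation p = 0.0952). Without PBS libraries 4 and 5 it was -0.11 ± 0.084 (limma, adjusted p = 0.991), and in that fit 5% of all genes had an unadjusted p of 0.05 or less.

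The same PBS libraries stood apart in other genes of the pathway. *Ccnd1*, a cyclin gene, was at 22.68 and 23.58 FPKM there and at 9.32 to 12.68 FPKM in PBS libraries 1 to 3. *Nkd1*, a feedback inhibitor of Wnt signalling, was at 19.84 and 21.69 FPKM against 9.64 to 13.76 FPKM. The 10 Muller glia markers had their lowest sums in these libraries, 1238 and 1494 FPKM. The sums were 1555 to 2227 FPKM in PBS libraries 1 to 3, and none of these markers was at 0. *Glul* had the widest spread of the 10 over the PBS libraries, at 579.5 ± 306 FPKM (SD). After Ceapin-A7, 7 of the 10 had a log2 fold change above 0 and 3 below 0, with *Glul* at 0.85 and *Vim* at -0.70. The sum thus does not show a fall of every Muller glia marker. The part of these differences in the *Ndp* value was not tested beyond leaving the libraries out.

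For the receptor and co-receptors no difference between the injected groups was detected. *Fzd4* was at 6.79, 6.28, 6.17, 6.29 and 5.3 FPKM in PBS and at 5.98, 6.7, 6.81, 5.46 and 5.86 FPKM in Ceapin-A7 libraries 1 to 5, a log2 fold change of -0.0011 ± 0.086 with a 95% interval from -0.19 to 0.19. For *Lrp6* the log2 fold change was -0.056 ± 0.063 with an interval from -0.19 to 0.081, and that of *Lrp5* was -0.093 ± 0.12 with an interval from -0.35 to 0.16. *Tspan12* was at 0.050 ± 0.080 and *Ctnnb1* at -0.0026 ± 0.042 on the same scale.

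The target genes also overlapped between the injected groups. *Axin2* was at 9.09 to 10.69 FPKM in PBS (median 9.91) and at 9.42 to 10.2 FPKM in Ceapin-A7 libraries (median 10.01), a log2 fold change of 0.0099 ± 0.052 with an interval from -0.10 to 0.12. *Apcdd1* had a log2 fold change of -0.037 ± 0.089, and *Lef1* one of 0.21 ± 0.19 with an interval from -0.20 to 0.62. *Lrp5*, *Lef1* and *Apcdd1* were all highest of their group in Ceapin-A7 library 3, at 4.17, 1.5 and 15.02 FPKM. Mural cell markers summed to 85.4 FPKM in that library against 35.4 to 36.8 FPKM in the other Ceapin-A7 libraries. The mural genes with the widest spread over the Ceapin-A7 libraries were *Acta2* (SD 12.2 FPKM) and *Tagln* (SD 6.27 FPKM). The SD was 0.816 FPKM for *Rgs5* and 0.310 FPKM for *Pdgfrb*, so the sum does not show a rise of every mural marker.

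**Figure D3:**
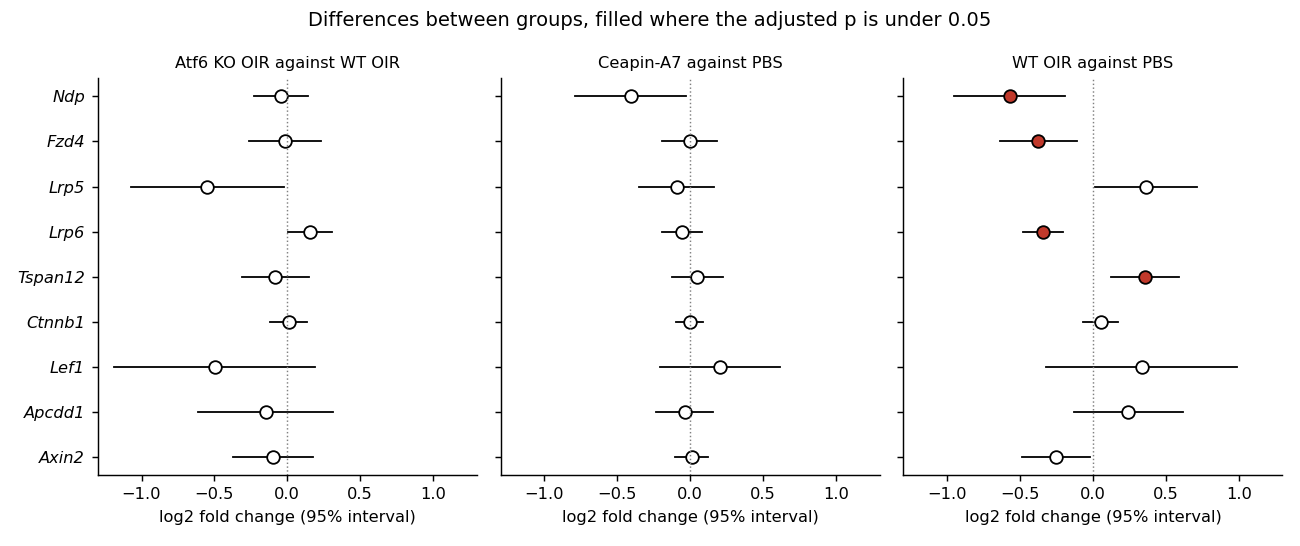
The log2 fold change of each of the 9 genes (point) is plotted with its 95% interval from limma (line) for Atf6-/- OIR against WT OIR, Ceapin-A7 against PBS and WT OIR against PBS. Filled points, with an adjusted p under 0.05, occur in WT OIR against PBS, for *Ndp*, *Fzd4*, *Lrp6* and *Tspan12*.

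The third comparison set the control groups of both experiments side by side, WT OIR retinas at P17 against PBS retinas at P30. Age, oxygen exposure and injection all differ between them and cannot be told apart, and these are the same control libraries as above. The groups also belong to separate experiments, and any difference in preparation cannot be told apart either. Of 9 pigment epithelium markers 5 were lower in WT OIR at the adjusted threshold (median log2 fold change -1.70), and of 5 red cell markers 4 were higher (median 2.48). Lens markers had a median of -2.54, and 0 of 13 passed. The part of these tissues in the values below was not tested. Of the 15655 genes tested 55.5% passed the adjusted threshold, 27.7% as higher and 27.9% as lower in WT OIR (limma). Of the 9 genes 4 passed, with *Ndp*, *Fzd4* and *Lrp6* lower and *Tspan12* higher in WT OIR. Before adjustment, 6 of 9 genes and 60.4% of all genes had a p of 0.05 or less, so the share of the 9 was near that of all genes. The groups did not overlap for *Ndp* and *Lrp6*, 2 of 9 genes where 41.4% of all genes had groups apart.

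Between these groups the log2 fold change of *Ndp* was -0.57 ± 0.17 (limma, adjusted p = 0.0144), from a mean of 8.34 ± 2.85 FPKM (SD, n = 5) in PBS to 5.42 ± 0.344 FPKM in WT OIR. Every WT OIR library was below every PBS library, and the exact permutation p was 0.00794, the smallest that 5 against 5 libraries can give. Without PBS libraries 4 and 5 the value was -0.28 ± 0.087 (limma, adjusted p = 0.023). *Lrp6* had a log2 fold change of -0.34 ± 0.062 (limma, adjusted p = 6.07e-04), from 9.86 ± 0.824 FPKM in PBS to 7.84 ± 0.239 FPKM in WT OIR, again without overlap.

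*Fzd4* had a log2 fold change of -0.38 ± 0.12 (limma, adjusted p = 0.0193), from 6.17 ± 0.540 FPKM in PBS to 4.84 ± 0.818 FPKM in WT OIR. With the GC trend removed it was -0.28 ± 0.12 (limma, adjusted p = 0.0748). The endothelial markers had the opposite sign, with 10 of 12 higher in WT OIR, none lower and a median log2 fold change of 1.65. *Tspan12* had a log2 fold change of 0.36 ± 0.11 (limma, adjusted p = 0.0134), from 4.99 ± 0.537 FPKM in PBS to 6.54 ± 0.989 FPKM in WT OIR. Without PBS libraries 4 and 5 the value for *Tspan12* was 0.32 ± 0.13 (limma, adjusted p = 0.0615).

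The other 5 genes did not pass the adjusted threshold. *Lrp5* was at 0.36 ± 0.16 on the log2 scale (limma, adjusted p = 0.0722), with 4 of 5 WT OIR libraries above every PBS library and WT OIR library 4 within their range. *Axin2* was at -0.25 ± 0.11 (limma, adjusted p = 0.0604), and with the GC trend removed at -0.40 ± 0.084 (adjusted p = 0.00183). *Apcdd1* was at 0.24 ± 0.17, *Lef1* at 0.33 ± 0.30 and *Ctnnb1* at 0.053 ± 0.055. The GC correction brought *Lrp5* to 0.23 ± 0.13 (limma, adjusted p = 0.168) and *Apcdd1* to 0.16 ± 0.16 (adjusted p = 0.417). *Lef1* was at 0.36 ± 0.30 in that fit (limma, adjusted p = 0.334). WT OIR library 4, left out next, was picked after the data were seen. Without WT OIR library 4, *Lrp5* was at 0.52 ± 0.11 (limma, adjusted p = 0.00182), *Apcdd1* at 0.43 ± 0.074 (adjusted p = 0.00057) and *Lef1* at 0.63 ± 0.19 (adjusted p = 0.0138), so that 7 of the 9 genes passed, in a fit where 58.1% of all genes did.

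Beyond these 9 genes, 100 other genes of Wnt and norrin signalling were examined in 9 lists. Of the 87 tested in OIR, 0 passed the adjusted threshold with loss of *Atf6* (limma) and 15 had an unadjusted p of 0.05 or less, 8 higher and 7 lower, which is 17.2% beside the 12.7% of all genes. The genotypes did not overlap for 2 of these 87 genes, both extracellular inhibitors, near the share of 1.8% of all genes. *Notum*, which encodes an enzyme that removes the lipid from Wnt proteins, was at 1.08, 1.58, 1.56, 1.16 and 1.27 FPKM in WT OIR and at 2.18, 3.12, 1.98, 1.6 and 1.65 FPKM in Atf6-/- OIR libraries 1 to 5, a log2 fold change of 0.62 ± 0.17 (limma, adjusted p = 0.358). *Sostdc1*, which encodes a secreted antagonist of BMP and Wnt signals, was at 2.26 ± 0.287 FPKM (SD, n = 5) in WT OIR and 2.82 ± 0.339 FPKM in Atf6-/- OIR, a log2 fold change of 0.33 ± 0.11 (limma, adjusted p = 0.358).

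Among the 8 other Wnt response genes 3 had an unadjusted p of 0.05 or less with loss of *Atf6*, all with lower values, where 12.7% of all genes had such a p. The median of the list was -0.20, but 4 of the 8 had a log2 fold change above 0 and 4 below 0, so the list had no common direction. *Ccnd1*, whose product drives entry into the cell cycle, was at 17.4 ± 3.79 FPKM in WT OIR and 12.7 ± 1.78 FPKM in Atf6-/- OIR, a log2 fold change of -0.42 ± 0.15 (limma, adjusted p = 0.362). *Nkd1* was at 14.4, 13.22, 15.88, 10.18 and 13.13 FPKM in WT OIR and at 7.95, 10.95, 9.28, 5.95 and 14.98 FPKM in Atf6-/- OIR libraries 1 to 5, a log2 fold change of -0.47 ± 0.22 (limma, adjusted p = 0.39). In *Nkd1*, too, WT OIR library 4 was the lowest and Atf6-/- OIR library 5 the highest of its group. *Sp5*, a transcription factor gene near the filter, was at 0.142 ± 0.0471 FPKM against 0.0600 ± 0.0200 FPKM.

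Of the 8 vessel genes known to depend on norrin, 2 had an unadjusted p of 0.05 or less with loss of *Atf6*, in opposite directions, where 12.7% of all genes had such a p. *Plvap*, which marks leaky endothelium and is known to rise when norrin signalling is lost, was at 4.86 ± 1.11 FPKM in WT OIR and 3.61 ± 0.668 FPKM in Atf6-/- OIR, a log2 fold change of -0.39 ± 0.17 (limma, adjusted p = 0.374). Its lowest WT OIR value was in library 4, at 3.75 FPKM, and its highest Atf6-/- OIR value in library 5, at 4.66 FPKM. *Mfsd2a*, a lipid transporter of the blood-retina barrier, was at 2.68 ± 0.799 FPKM and 3.63 ± 0.732 FPKM, a log2 fold change of 0.46 ± 0.21 (limma, adjusted p = 0.39). The median of the list was -0.073. In the other lists the genes with an unadjusted p of 0.05 or less were *Wnt4* at a log2 fold change of -0.44 ± 0.16, *Fzd9* at -0.56 ± 0.19, *Reck* at 0.27 ± 0.094 and *Ror1* at 0.35 ± 0.13. In the cytoplasmic relay and destruction complex they were *Apc* at 0.25 ± 0.095, *Tnks2* at 0.16 ± 0.061 and *Btrc* at 0.12 ± 0.050, all with higher values, and *Axin1*, chosen after its values were seen to complete the count, at -0.20 ± 0.088. *Fzd9* was lowest of WT OIR in library 4 and highest of Atf6-/- OIR in library 5, at 0.78 and 0.93 FPKM. *Tnks2* had the reverse order in these libraries, at 43.28 and 37.05 FPKM. *Reck* was lowest of Atf6-/- OIR in library 5, at 4.26 FPKM. *Mfsd2a*, *Wnt4*, *Ror1*, *Apc* and *Btrc* did not have both extremes there.

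After Ceapin-A7, 0 of the 88 other pathway genes tested passed the adjusted threshold (limma) and 11 had an unadjusted p of 0.05 or less, 3 higher and 8 lower, which is 12.5% beside the 10.4% of all genes. Groups did not overlap for 1 of the 88 genes, where 1.47% of all genes had groups apart. It was *Sox17*, an endothelial transcription factor gene downstream of norrin, at 1.13 ± 0.0814 FPKM in PBS and 1.43 ± 0.135 FPKM in Ceapin-A7, a log2 fold change of 0.31 ± 0.093 (limma, adjusted p = 0.472). *Dkk3*, the highest extracellular inhibitor of the list at a mean of 233 FPKM over the 20 libraries, was at 240.2 ± 44.8 FPKM in PBS and 294 ± 17.1 FPKM in Ceapin-A7, a log2 fold change of 0.31 ± 0.12 (limma, adjusted p = 0.472). It was lowest in PBS libraries 4 and 5, at 192.38 and 200.68 FPKM against 236.74 to 291.44 FPKM in the other PBS libraries. *Ccnd1* was at 16.0 ± 6.65 FPKM in PBS and 9.82 ± 0.792 FPKM in Ceapin-A7, a log2 fold change of -0.60 ± 0.22 (limma, adjusted p = 0.472). Without PBS libraries 4 and 5 the log2 values were -0.20 for *Ccnd1*, 0.11 for *Dkk3* and 0.35 for *Sox17* (limma, adjusted p = 0.991 for each). For the 13 genes of the cytoplasmic relay the median log2 fold change was -0.038, and the Dishevelled gene *Dvl2* was at -0.17 ± 0.055 (limma, adjusted p = 0.472).

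**Figure D4:**
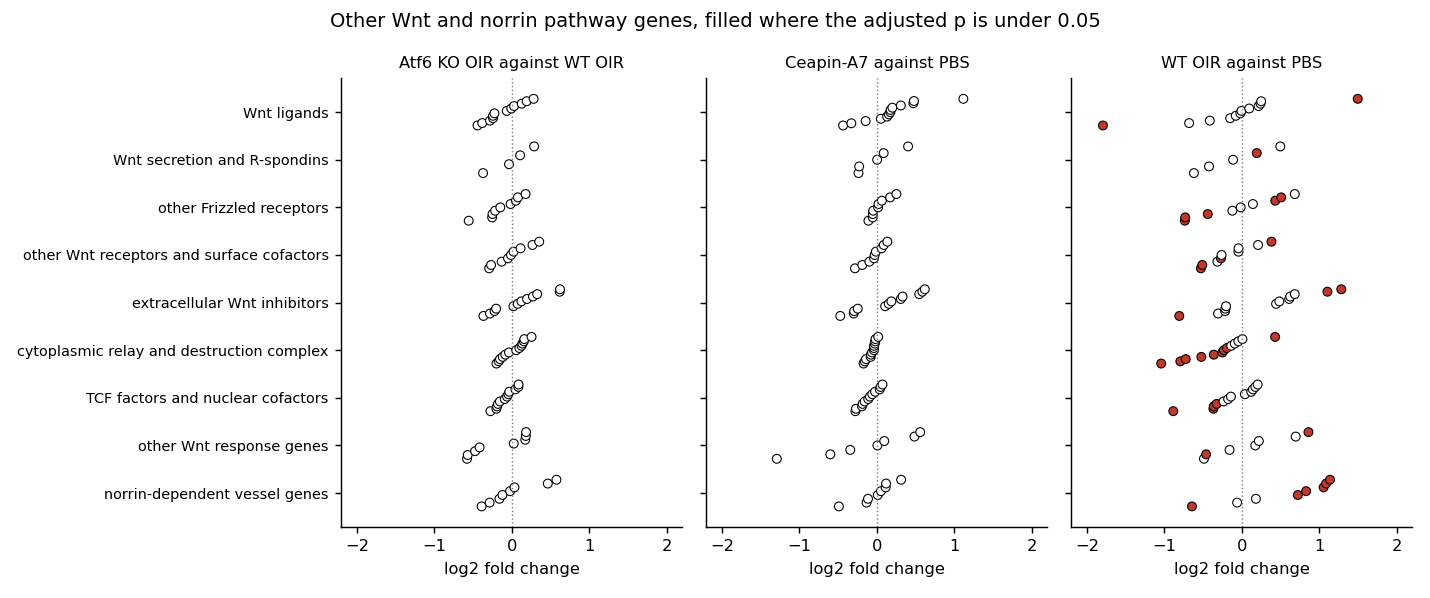
The log2 fold change of each tested gene of the 9 lists of other Wnt and norrin pathway genes (points, 1 row per list) is plotted for Atf6-/- OIR against WT OIR, Ceapin-A7 against PBS and WT OIR against PBS, and filled points have an adjusted p under 0.05. Filled points occur in WT OIR against PBS, where 14 genes are higher and 22 lower in WT OIR.

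Between WT OIR at P17 and PBS at P30, 36 of the 87 other pathway genes tested passed the adjusted threshold, 14 higher and 22 lower in WT OIR, which is 41.4% beside the 55.5% of all genes. Of the 13 genes of the cytoplasmic relay and destruction complex 8 fell and 1 rose in WT OIR, and of the 12 TCF factors and nuclear cofactors 4 fell and none rose. *Csnk1a1*, a kinase that primes beta-catenin for degradation, was at 75.5 ± 3.44 FPKM in PBS and 46.3 ± 1.36 FPKM in WT OIR, a log2 fold change of -0.72 ± 0.046 (limma, adjusted p = 4.18e-07). *Gsk3b*, the kinase that acts after it, was at 35.5 ± 4.08 FPKM and 20.7 ± 2.23 FPKM, a log2 fold change of -0.79 ± 0.093 (limma, adjusted p = 2.44e-05). *Pygo2*, which encodes a nuclear cofactor of beta-catenin, was at 27.3 ± 1.28 FPKM and 15.0 ± 1.44 FPKM, a log2 fold change of -0.89 ± 0.074 (limma, adjusted p = 2.52e-06).

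Of the 8 norrin-dependent vessel genes 5 rose and 1 fell in WT OIR, beside 27.7% and 27.9% of all genes. *Cldn5*, a tight junction gene of the barrier, was at 15.9 ± 2.86 FPKM in PBS and 34.5 ± 10.2 FPKM in WT OIR, a log2 fold change of 1.05 ± 0.18 (limma, adjusted p = 4.39e-04). *Slc2a1*, a glucose transporter gene that barrier endothelium expresses, was at 113 ± 15.6 FPKM and 189 ± 31.0 FPKM, a log2 fold change of 0.72 ± 0.12 (limma, adjusted p = 2.76e-04). The 12 endothelial markers together averaged 151 ± 22.1 FPKM in WT OIR, less than *Slc2a1* alone. The part of other cell types in the *Slc2a1* value was not tested. Endothelial markers moved the same way, as given above. With the endothelial score as a covariate, *Cldn5* was at -0.63 (limma, adjusted p = 0.658) and *Slc2a1* at 0.026 (adjusted p = 0.986), in a fit where 0.121% of all genes passed. The score does not overlap between these groups, so group and endothelial content cannot be told apart.

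Ligands and receptors split in direction between the control groups, as did all genes tested. Of all genes, 27.7% passed the adjusted threshold as higher and 27.9% as lower in WT OIR. Of 12 Wnt ligands tested, *Wnt4* rose in WT OIR (0.636 ± 0.0673 FPKM against 0.162 ± 0.0526 FPKM in PBS, limma, adjusted p = 1.86e-05) and *Wnt10a* fell (0.178 ± 0.0109 FPKM against 0.894 ± 0.296 FPKM, limma, adjusted p = 2.38e-05). The ligand with the highest level, *Wnt2b*, averaged 2.78 FPKM over the 20 libraries, below *Ndp* at 6.25 FPKM on the same per-length scale. Of the 9 other Frizzled receptors 2 rose and 3 fell. *Fzd5*, the highest of them at a mean of 7.87 FPKM over the 20 libraries, was at 9.84 ± 0.441 FPKM in PBS and 6.05 ± 1.16 FPKM in WT OIR, a log2 fold change of -0.74 ± 0.13 (limma, adjusted p = 4.90e-04). *Mesd*, which encodes the chaperone that folds LRP5 and LRP6, was at 17.1 ± 0.750 FPKM and 12.2 ± 1.34 FPKM, a log2 fold change of -0.51 ± 0.071 (limma, adjusted p = 9.16e-05). Of the 12 extracellular inhibitors 2 rose and 1 fell, and *Notum* was at 1.10 ± 0.27 on the log2 scale (limma, adjusted p = 0.00438).

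The genes most alike to the ligand, its receptor and the tetraspanin were sought among 12434 genes by the correlation of log2 values over the 20 libraries, centred within each group. For *Ndp* they were *Atf4* (r = 0.892), *Rnd3* (0.874) and *Trim35* (0.874). *Atf4*, which encodes a transcription factor of the integrated stress response, was at 293.68 and 355.93 FPKM in PBS libraries 4 and 5 and at 197.77 to 213.39 FPKM in the other PBS libraries. Without PBS libraries 4 and 5 its correlation with *Ndp* over 18 libraries was 0.748. For *Fzd4* they were *Lnpep* (0.726), *Hif3a* (0.723) and *Abcc10* (0.721), and for *Tspan12* they were *Phyhd1* (0.791), *Dusp19* (0.751) and *Zfp692* (0.748). Of all genes searched, 1% had a correlation above 0.677 with *Ndp*, 0.507 with *Fzd4* and 0.547 with *Tspan12*. All these are descriptions, with no test.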

How the data were processed

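Whole mouse retinas were sequenced as stranded mRNA libraries with 100-base paired reads, 5 libraries in each of 4 groups. Per the labels and the study's methods, the authors aligned reads with HISAT2 (2.0.4) to GRCm39, quantified genes with RSEM (1.2.18) and deposited FPKM values with 2 decimals; read counts and depth were not used here. FPKM keep no depth, so the precision rests on the spread between libraries. 0 columns of sample values were left out. The authors' own differential expression used DESeq2 (1.4.5), whose results were not used.

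Each library was scaled by a median-of-ratios factor, then log2 transformed after 0.1 was added, which understates changes of low genes, and tested with limma (3.58.1, empirical Bayes with trend, R 4.3.3) in genes with a mean above 0.1 FPKM. P-values were adjusted by the Benjamini-Hochberg method over all genes tested. Exact two-sided permutation tests over the 252 arrangements were run for each of the 9 genes. The GC trend used GENCODE vM21 transcripts, with a value for 97.0% of genes at P17 and 97.1% at P30, and was removed with lowess (span 0.3). The scripts were tested on simulated data. The 9 genes and all lists were chosen with earlier results of these data known. The rule named up to 3 genes of each pathway list with the smallest p and the gene with the highest mean, and those named here had a p of 0.05 or less or the highest mean. The values of *Nkd1* in PBS and the libraries left out in pairs were chosen after values were seen. Alternatives were other pseudocounts, filters and scalings, TPM, limma without trend or with array weights, a GC correction, an endothelial covariate, a replicate block and leaving out libraries. Replicate numbers were not taken to pair libraries.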

Additional observations from a re-analysis of the deposited data

Results flagged for a closer look

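In 6 of 36 groups of 5 libraries, the extreme library of a gene was separated from the next by more than 0.71 of the whole range of its group, and chance gives about 1 such group in 20. Both values in Atf6-/- OIR came from library 5, with *Lrp5* at 5.5 FPKM and *Axin2* at 9.34 FPKM, each above the other 4 libraries, and that library also had a GC trend of the opposite sign to theirs. In Ceapin-A7, library 2 stood apart with *Ndp* at 5.23 FPKM, below the others, and with *Tspan12* at 5.73 FPKM, above them. *Lrp5* was at 4.17 FPKM in Ceapin-A7 library 3, above the others, in the library with the highest sum of mural cell markers among the Ceapin-A7 libraries. The genes in that sum differed in spread, as given above. *Ctnnb1* was at 105.52 FPKM in PBS library 2, below the others.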

How the results depend on the processing

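Most values of the 9 genes kept their sign and their side of the adjusted threshold: 217 of the alternative values with loss of *Atf6*, 211 with Ceapin-A7 and 214 between the control groups. With loss of *Atf6*, the genes of the 9 with an unadjusted p of 0.05 or less numbered 2 in the reported fit. They were 1 with FPKM as deposited, with TPM, with limma without trend, with the replicate block, with the GC correction and with the GC correction and block. In these fits 12.1%, 11.7%, 12.1%, 12.5%, 10.7% and 8.9% of all genes had such a p, in the same order. They were 5 with array weights, 0 with the endothelial covariate and 4 without WT OIR library 4 and Atf6-/- OIR library 5, where 36.6%, 4.06% and 38.8% of all genes had such a p. They were 0 to 2 when each library was left out, where 6.95% to 25.5% of all genes had one. The adjusted count, 0 as reported, was 2 with array weights, 4 without those 2 libraries and 3 without them after GC correction, where 17.6%, 24.9% and 12.7% of all genes passed. The count over other pathway genes, 0 as reported, was 18, 29 and 8 in the same order, beside the same shares of all genes. With Ceapin-A7, the unadjusted count of 1 was 0 with limma without trend, with array weights and without PBS libraries 4 and 5. There 9.27%, 9.69% and 5% of all genes had such a p. The count was 0 to 1 when each library was left out, where 6.21% to 16.4% of all genes had one. Between the control groups, the 4 adjusted calls were 4 to 7 when each library was left out, 7 without WT OIR library 4. In those fits 51.4% to 58.1% of all genes passed. With the endothelial covariate all 3 counts there were 0, but 0.121% of all genes passed the adjusted threshold in that fit and 16.2% the unadjusted one, and the score does not overlap between those groups.

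Reversed signs were near 0 except under the endothelial covariate. With loss of *Atf6*, *Ctnnb1* was at -0.00747 with FPKM as deposited, -0.0139 with TPM, -0.0102 with quantile normalization and -0.00465 with the covariate, and between -0.0129 and 0.0378 when each library was left out. *Fzd4* was at 0.0141 with quantile normalization and 0.0045 with the covariate, and between -0.097 and 0.0588 with libraries left out, while *Ndp* was between -0.101 and 0.00778. *Axin2* was at 0.0472 with the covariate and 0.0107 with the GC correction, with or without the replicate block, and *Apcdd1* was at 0.207 with the covariate. With Ceapin-A7, *Axin2* was at -0.0285 with TPM, *Fzd4* at 0.0158 with quantile normalization and *Ctnnb1* at 0.0026 with the covariate. Without PBS libraries 4 and 5, *Ctnnb1* was at 0.00319, *Lrp5* at 0.0155 and *Lrp6* at 0.0111. When each library was left out, *Ctnnb1* was between -0.0295 and 0.0106, *Axin2* between -0.0152 and 0.0321, *Apcdd1* between -0.116 and 0.0253 and *Fzd4* between -0.0604 and 0.0447. Between the control groups the covariate gave -0.98 for *Apcdd1*, -1.39 for *Lef1*, -0.686 for *Lrp5*, -0.291 for *Fzd8*, -0.83 for *Foxq1* and -0.629 for *Cldn5*. The causes were not tested. *Axin2* between the control groups passed in one fit of all 20 libraries (-0.25, adjusted p = 0.0328, limma) and without WT OIR library 2 or 5.

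Libraries with the same number correlated at -0.495 to 0.36 with loss of *Atf6*, -0.261 to 0.161 with Ceapin-A7 and -0.266 to -0.00393 between the control groups, so the numbers were not taken as a pairing. With the replicate block 0 of the 9 genes passed the adjusted threshold with loss of *Atf6*, 0 with Ceapin-A7 and 4 between the control groups. Of all genes 0.0318%, 0% and 51.3% passed in these fits. FPKM without counts leave the counting error of low genes such as *Lef1* unknown.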
